A study of Mus musculus with 12 samples.

Results

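NIH-3T3 cells stably expressing wild-type CBL (WT-CBL) were compared with NIH-3T3 cells carrying the empty vector (EV). The comparison takes 6 of the 12 RNA-seq libraries of the series, 3 per line, chosen by the line named in their labels, and covers every gene with a mean of at least 10 normalized counts in either line, which left 15083 of 39179 gene IDs. The series asks how the transcriptomes of cells expressing WT-CBL or the mutants CBL-70Z and CBL-Y371S differ, and its mutant libraries, 3 per line, are used below only for the genes that set WT-CBL apart from EV. NIH-3T3 is an established mouse fibroblast line of NIH/Swiss background. All lines were at passages 13 to 17 and grew in DMEM with donor bovine serum and antibiotics. The lines were made by retroviral infection and selected with puromycin, and no ligand or other drug is named for the RNA samples. The study's methods list FLAG-tagged CBL in pBabe Puro, a retroviral vector with a puromycin resistance gene, which gives long terminal repeat-driven expression, and the EV line carries the vector without CBL. Whether a line is a pool of infected cells or 1 clone is not given in the sources used here. Since no source says that the replicates of a line were grown as separate cultures, p-values measure no more than the spread between these libraries.

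CBL is a RING-type E3 ubiquitin ligase. It binds phosphorylated receptor tyrosine kinases such as EGFR, PDGFR and MET through its tyrosine kinase-binding domain, attaches ubiquitin to them and so sends them to endocytosis and lysosomes. Its proline-rich C-terminal part recruits SH3-domain adaptors, among them CIN85 (gene Sh3kbp1), CD2AP and GRB2. WT-CBL is regarded as a brake on receptor signaling, and fibroblasts are the classical cells in which transformation by CBL mutants was studied.

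Reads counted at mouse Cbl (ENSMUSG00000034342, chromosome 9, 44142976 to 44234049 of GRCm38, minus strand) were 725, 824 and 650 in EV replicates 1 to 3 and 853, 870 and 679 in WT-CBL replicates 1 to 3. As normalized counts, the reads of each library divided by a size factor that evens out depth, these were 751, 712 and 647 in EV and 826, 952 and 709.6 in WT-CBL. WT-CBL replicate 3 lay within the EV values, so the lines overlapped, and the log2 fold change was 0.23 ± 0.09 (SE, adjusted p = 0.0504). Without that replicate it was 0.34 (adjusted p = 5.99e-05), without WT-CBL replicate 2 it was 0.12 (0.228), and without a trend with transcript length described below it was 0.42 (0.0001). Cbl passed the test in 12 of 19 alternative analyses, always upward. Reads from the construct reach this gene only where they align to the mouse sequence, so the count does not measure the expressed CBL.

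The lines also differed at 2 processed pseudogenes that resemble Cbl, chosen after their values were seen. Their counts cannot be assigned to RNA of the construct, of Cbl or of the pseudogenes themselves. Gm15272 (ENSMUSG00000083196) had 0, 0 and 0 reads in EV and 60, 70 and 73 reads in WT-CBL, which is at least 24.3-fold higher than a floor of 3 reads per EV library. It had 115 to 121 reads in the CBL-70Z libraries and 155 to 208 in those of CBL-Y371S. Gm6695 (ENSMUSG00000093560, chromosome 6, 58091076 to 58092247) had 14, 8 and 14 reads in EV and 91, 112 and 78 in WT-CBL, an 8.27-fold difference of normalized means. At both, every WT-CBL library was above every EV library, unlike at Cbl itself. Gm15272 aligned to Cbl mRNA over 237 columns with 95.8% identity, 6 mismatches and 4 gap positions, and the longest identical run was 80 bases. The matching stretch lies in exon 16 of the mRNA, 234 of its 237 bases are annotated as coding, and it ends at the stop codon. Gm6695 aligned over 1187 columns with 90.7% identity to exons 1 to 7. The sequences of Gm15272 (chr10:24514279-24514511 of GRCm38, minus strand) and of the matching Cbl stretch (chr9:44151445-44151681, minus strand) are given because this locus separated every CBL library from every EV library. Capitals mark the bases that differ between them.
Gm15272: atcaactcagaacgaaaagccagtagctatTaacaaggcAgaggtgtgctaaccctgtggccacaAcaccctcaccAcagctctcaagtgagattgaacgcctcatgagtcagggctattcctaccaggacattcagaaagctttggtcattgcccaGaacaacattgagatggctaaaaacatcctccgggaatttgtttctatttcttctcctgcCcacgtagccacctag
Cbl: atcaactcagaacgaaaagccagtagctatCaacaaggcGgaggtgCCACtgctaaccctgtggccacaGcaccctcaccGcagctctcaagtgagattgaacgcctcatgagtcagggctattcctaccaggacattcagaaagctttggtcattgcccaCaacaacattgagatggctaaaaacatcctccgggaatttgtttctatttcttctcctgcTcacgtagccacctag

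Reads in genes numbered 24763982 to 29684881 in the EV libraries and 23018097 to 25874715 in the WT-CBL libraries (20724468 to 29684881 over all 12). Mitochondrial transcripts made up 2.23% to 2.39% of them in EV and 2.58% to 2.59% in WT-CBL. Of 10 fibroblast markers 9 were measured, with summed normalized counts of 1003320 to 1044210 in EV and 911219 to 959859 in WT-CBL. The collagens Col1a1 and Col1a2 were the most abundant. Of the 9, 2 were called higher and 5 (55.6%) lower, against 20.5% of all genes tested. Their median log2 fold change was -0.21, and -0.17 without the trend with length. None of 6 blood markers reached the minimum, and their summed counts were 8.29 to 13.0 in EV and 5.47 to 30.01 in WT-CBL. Of 4 neural markers only the tubulin gene Tubb3 was measured, and it was called higher. The summed counts of these markers were 246 to 254 in EV and 344 to 351 in WT-CBL, with Olig2 at 0 in all 6 libraries. Of 3 cartilage markers only the transcription factor gene Sox9 was measured, and it was called higher, with sums of 2578 to 2639.8 in EV and 2831 to 2996 in WT-CBL. The part of other cell types in the results was not tested.

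WT-CBL replicate 3 differed from its pair more than any other library did. Over 11184 genes with a mean of at least 100 normalized counts, each library was set against the mean of the other 2 of its line. The SD of these log2 differences was 0.079, 0.081 and 0.084 in EV and 0.098 and 0.100 in WT-CBL replicates 1 and 2, against 0.133 in replicate 3. Genes more than 1.25-fold from their own pair made up 0.429% to 0.510% in EV, 0.742% and 0.867% in WT-CBL replicates 1 and 2, and 2.40% in replicate 3. Transcript length moved with it. The difference of replicate 3 from its pair had a Spearman rho of -0.55 with exon length over the same genes, while rho was 0.39 for each of replicates 1 and 2, whose pair includes replicate 3. In E2f2, a transcription factor gene of the cell cycle, replicate 3 had 125 normalized counts against 97.8 and 75.5 in replicates 1 and 2. In the opposite direction stood long transcripts such as Srcap, a chromatin remodeler, with 379 against 639.8 and 658. Lcor, a nuclear receptor corepressor, had 115 against 174 and 198, and Aak1, a kinase of clathrin adaptors, 257 against 387 and 418. Shorter transcripts stood there too, among them Svs2 (1985 bases) with 63.8 against 186 and 77.7 and Htra1 (2879 bases) with 82.6 against 178 and 95.2. Leaving out replicate 3 ended 558 calls and added 392 among 15043 genes, and no call changed direction. This loss was not particular to replicate 3. Of 5843 calls, 5285 were kept in their direction without it, against 5210 and 5167 without WT-CBL replicates 1 and 2. Without EV replicates 1 to 3, 4262, 4500 and 4462 were kept.

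The trend with length was not confined to replicate 3. Against the EV mean, rho with exon length was -0.52, -0.51 and -0.61 for WT-CBL replicates 1 to 3, and the log2 fold change of the line had a rho of -0.58 with exon length and of 0.20 with GC content. Genes were split by exon length into 10 classes of equal size. The shortest class, with a median length of 881 bases, had a median log2 fold change of 0.19, and 53.4% of its genes were called higher. The longest class, with a median of 12476 bases, had a median of -0.24, and 68.5% were called lower. Genes in between followed in order. Without replicate 3 the rho was -0.54. The log2 difference of WT-CBL from CBL-70Z had a rho of -0.46 with length and that from CBL-Y371S one of 0.28. RNA quality values are not used here, and the part of RNA integrity, library preparation or the cells in this trend was not tested. A smooth trend with length and GC content was therefore removed from each library as an alternative, which brought the rho to -0.14. The counts of each pathway list described below are given with and without this trend, and single genes also without it where their call changed or their value moved by over 1.5 times. For the lists, counts and medians with a library left out come from values that keep the trend.

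**Figure D1:**
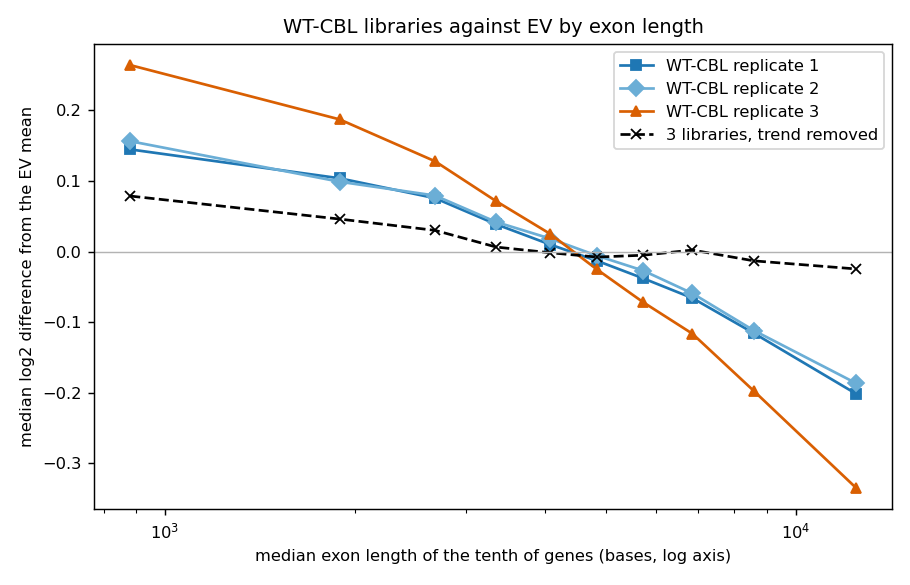
Median log2 difference of each WT-CBL library from the EV mean, for 10 classes of genes by exon length (log axis, bases), for 11184 genes with a mean of at least 100 normalized counts. All 3 libraries fall from short to long genes, replicate 3 most steeply (0.26 in the shortest and -0.33 in the longest class), and the dashed line shows the line's median after removal of the trend (0.08 in the shortest class).

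Of the 15083 genes tested with limma, 5843 were called at an adjusted p below 0.05, which is 38.7% of them. WT-CBL was higher in 2756 (18.3%) and lower in 3087 (20.5%). Most of these differences were small. At a fold of 2 or more, 139 genes were called (0.922%), 40 of them higher and 99 lower. The 3 WT-CBL libraries did not overlap with the 3 EV libraries in 51.6% of genes. Once the trend with length and GC content was removed, 2688 of 14915 genes were called higher (18% of genes) and 2573 lower (17.3%), 4033 of the original calls were kept in their direction, and 37 were called in the opposite one. The genes named next are the 15 highest and 15 lowest among those called in both analyses. They also had to have a mean of 100 or more in either line and no overlap between the libraries of the lines. Symbols of the Gm-number and Rik type were left out. Each of these 30 kept its direction and its call in all 19 alternatives. Trend removal, by which they were chosen, is among these, and all reuse the libraries that chose them, so this is no independent support.

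The gene with the highest fold change under this rule was Slc6a12, the betaine and GABA transporter BGT1 that takes up osmolytes (ENSMUSG00000030109, chromosome 6, 121343076 to 121365775). It had 7.25, 6.04 and 2.99 normalized counts in EV and 147, 142 and 149 in WT-CBL, where all 3 libraries lay close together. In bulk RNA, more cells that express a gene and more RNA per cell cannot be told apart. The log2 fold change was 4.58 ± 0.25, adjusted p = 6.08e-08, on log2 of the value plus 1, a scale that understates the change of a gene so low in EV. Scara5, a scavenger receptor that takes up ferritin, had 85.0, 81.2 and 72.6 in EV and 277, 269 and 234 in WT-CBL (1.69 ± 0.10). Values in parentheses of this form, here and for the genes that follow, are log2 fold changes of WT-CBL over EV ± SE from limma. Replicate 3 was the lowest of the WT-CBL libraries and still far above EV. U90926, a transcript of little-known function, had 327, 338 and 380.1 in EV and 961, 848 and 1014 in WT-CBL (1.43 ± 0.07).

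The Id genes rose together. They encode helix-loop-helix proteins without a DNA-binding region, which keep E proteins and lineage factors off DNA, and they are classical targets of BMP and SMAD signaling. Id1 had 968, 919 and 959 normalized counts in EV and 1879, 1952 and 2047 in WT-CBL, a log2 fold change of 1.05 ± 0.04, adjusted p = 6.67e-09. Id2 had 858, 905 and 859 in EV and 1569, 1580.4 and 1693 in WT-CBL (0.88 ± 0.05). Id3 had 2145, 2129 and 2083 in EV and 3413, 3462 and 3903 in WT-CBL (0.76 ± 0.05), and Id4, the least abundant, had 113, 119 and 115 in EV and 279, 255 and 280.1 in WT-CBL (1.22 ± 0.08). In none of the 4 did the libraries of the lines overlap, which the rule required of Id1, Id2 and Id4 but not of Id3. Without the trend the log2 fold changes were 0.92, 0.83, 0.65 and 1.22. Their promoters, the 250 bases before the start in RefSeq on GRCm38.p6, are shown because these genes moved together. Id1 is named only. The Id2 promoter is chr12:25096093-25096342 on the minus strand, that of Id3 chr4:136143572-136143821 and that of Id4 chr13:48260866-48261115, both on the plus strand. Capitals mark matches on either strand to 7 motifs. SMAD proteins are known to bind GGCGCC and GTCTAGAC. The others are the GC box GGGCGG, the E-box with the letters CACGTG, the TATA box with TATAAA, the CCAAT box, searched as those 5 letters, and the cyclic AMP response element TGACGTCA.
Id2: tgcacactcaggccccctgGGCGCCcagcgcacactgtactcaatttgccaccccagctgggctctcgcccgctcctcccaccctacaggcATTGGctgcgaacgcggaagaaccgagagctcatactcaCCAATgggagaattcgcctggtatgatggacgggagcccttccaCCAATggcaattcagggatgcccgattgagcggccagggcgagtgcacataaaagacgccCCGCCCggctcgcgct
Id3: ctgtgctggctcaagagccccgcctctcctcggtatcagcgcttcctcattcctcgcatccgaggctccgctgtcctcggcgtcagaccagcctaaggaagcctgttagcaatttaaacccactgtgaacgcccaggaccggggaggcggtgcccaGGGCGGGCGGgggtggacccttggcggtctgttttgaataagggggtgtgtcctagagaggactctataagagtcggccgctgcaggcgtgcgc
Id4: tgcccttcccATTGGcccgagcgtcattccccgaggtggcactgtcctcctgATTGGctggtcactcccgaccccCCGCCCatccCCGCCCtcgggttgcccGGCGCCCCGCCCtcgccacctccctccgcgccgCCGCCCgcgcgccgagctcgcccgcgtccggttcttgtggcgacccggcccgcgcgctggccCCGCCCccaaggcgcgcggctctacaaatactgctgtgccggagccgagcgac

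GGCGCC stood once each in the Id2 and Id4 promoters, 231 and 148 bases before the start, and not in that of Id3. It is in 9.59% of 32851 RefSeq promoters. The GC box was in all 3, with 1, 2 and 5 matches in Id2, Id3 and Id4 (in 32.7% of all promoters). The matches in Id3 overlap each other, and 1 of those in Id4 directly follows its GGCGCC match. The CCAAT box was found 3 times in Id2 and 2 times in Id4 (33.8% of promoters). None held the E-box, the TATA box, the cyclic AMP response element or GTCTAGAC (6.02%, 12.4%, 1.55% and 0.167% of promoters). GC content was 62.8%, 62.8% and 75.6% in Id2, Id3 and Id4 against a median of 52.4% over all promoters. These are letter matches and show no binding.

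Cdsn, Krt14 and Cdh26, which are best known from epithelia, were among the highest. Cdsn, which encodes corneodesmosin of the skin, had 599, 581 and 601 normalized counts in EV and 1033, 1043 and 1022 in WT-CBL (0.80 ± 0.05, adjusted p = 7.91e-08). Krt14, a basal keratin, had 53.9, 46.6 and 55.7 in EV and 96.8, 91.9 and 114 in WT-CBL (0.94 ± 0.13), and Cdh26, a cadherin, 99.5, 86.3 and 98.5 in EV and 171, 167 and 156 in WT-CBL (0.79 ± 0.10). The connexin gene Gjb5, chosen after its values were seen, was called as well (0.95 ± 0.24, adjusted p = 0.00616). Of 6 epithelial markers, 3 were measured. Their summed normalized counts were 83.8 to 169 in EV and 139 to 224 in WT-CBL, none was at 0 in all libraries, and only Krt14 was called. The part of epithelial cells in these levels was not tested.

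Among the other genes of the 15 highest, Mustn1, a small nuclear protein of muscle and skeleton, was the most abundant, with 722, 650.2 and 654 normalized counts in EV and 1180.0, 1192 and 1319.9 in WT-CBL (0.86 ± 0.06). Ptn, the secreted growth factor pleiotrophin, had 62.2, 46.6 and 63.7 in EV and 132, 95.2 and 116 in WT-CBL (0.98 ± 0.15). The remaining genes had low counts and gave between 0.81 and 0.89 on the log2 scale. They were Apol9a, an apolipoprotein L gene whose reads can be split with the near-identical Apol9b (0.89 ± 0.11), Sytl2, a RAB27 effector of vesicle transport (0.87 ± 0.14), Aff3, a nuclear protein of the AFF family (0.84 ± 0.11), and Gpr56, an adhesion receptor (0.81 ± 0.16). The lowest WT-CBL library exceeded the highest EV library in each of them, as the rule required.

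Frmd5 had the lowest fold change under the same rule. It encodes a FERM-domain protein of adherens junctions (ENSMUSG00000027238, chromosome 2, 121545529 to 121807087) and had 175, 181 and 168 normalized counts in EV against 59.0, 60.2 and 60.6 in WT-CBL, a log2 fold change of -1.53 ± 0.10, adjusted p = 2.55e-07. The WT-CBL libraries were nearly equal here, replicate 3 included. Stra6, the membrane receptor that takes up retinol from retinol-binding protein, had 435, 422 and 457 in EV and 177, 158 and 166 in WT-CBL (-1.39 ± 0.07, adjusted p = 4.85e-08). Sema7a, a membrane-anchored semaphorin, had 439, 384 and 397 in EV and 204, 188 and 162 in WT-CBL (-1.14 ± 0.09). Hp, which encodes haptoglobin, had 158, 198 and 195 in EV and 74.5, 70.0 and 77.3 in WT-CBL (-1.29 ± 0.11). That no library of one line reached into the range of the other was part of the rule for these genes.

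Igf2 and its antisense neighbor Igf2os both fell. Igf2 encodes the imprinted insulin-like growth factor 2 and was abundant, with 8313, 8355 and 8108 normalized counts in EV and 3912, 3902 and 3582 in WT-CBL (-1.12 ± 0.04, adjusted p = 7.1e-10). Igf2os had 3206, 3177 and 2979 in EV and 1211, 1137 and 1121 in WT-CBL (-1.43 ± 0.04). Since it overlaps Igf2 and the library kit does not mark strand, the reads of both genes cannot be told apart. H19, the imprinted noncoding gene next to Igf2, was near the detection limit, with 9.33, 6.91 and 0.995 in EV and 19.4, 21.9 and 17.8 in WT-CBL (1.92 ± 0.50, adjusted p = 0.00822). Removing the trend left Igf2 at -1.11, Igf2os at -1.44 and H19 at 1.82. Without EV replicate 3 the value of H19 was 1.19 (adjusted p = 0.0118).

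Several of the lowest genes were much lower in WT-CBL replicate 3 than in its pair. Zfp871, a zinc-finger gene, had 1113, 1034 and 1039.8 normalized counts in EV and 468, 459.7 and 322 in WT-CBL (-1.37 ± 0.11, -1.19 without replicate 3). Zbed6, a repressor of Igf2 derived from a DNA transposon, had 3582, 3394 and 3549 in EV and 1725, 1751 and 1102 in WT-CBL (-1.23 ± 0.12, -1.01 without replicate 3), and as it lies inside Zc3h11a its reads cannot be assigned with certainty. Myo7a, an unconventional myosin, had 251, 257 and 229 in EV and 112, 114 and 76.3 in WT-CBL (-1.30 ± 0.13, -1.11 without replicate 3). In all 3 genes replicates 1 and 2 were themselves below every EV library, as the rule required. Lnpep, the insulin-regulated aminopeptidase, had 2151, 2099 and 2053 in EV and 1036, 1025 and 806 in WT-CBL (-1.14 ± 0.07), and Csf2rb, the shared receptor chain of IL-3, IL-5 and GM-CSF, 460.1, 445 and 438 in EV and 181, 200.3 and 142 in WT-CBL (-1.37 ± 0.10), with reads that can be split with its paralog Csf2rb2. The others were Dgkh, a diacylglycerol kinase (-1.36 ± 0.09), Pi15, a secreted peptidase inhibitor (-1.33 ± 0.15), Klhl30, a kelch-like gene (-1.28 ± 0.11), Kcnj15, an inwardly rectifying potassium channel (-1.27 ± 0.14), and Ptar1, a prenyltransferase subunit (-1.21 ± 0.11). Removal of the trend left Zfp871 at -1.15, Zbed6 at -1.06, Myo7a at -1.21, Lnpep at -0.88 and Csf2rb at -1.30.

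**Figure D2:**
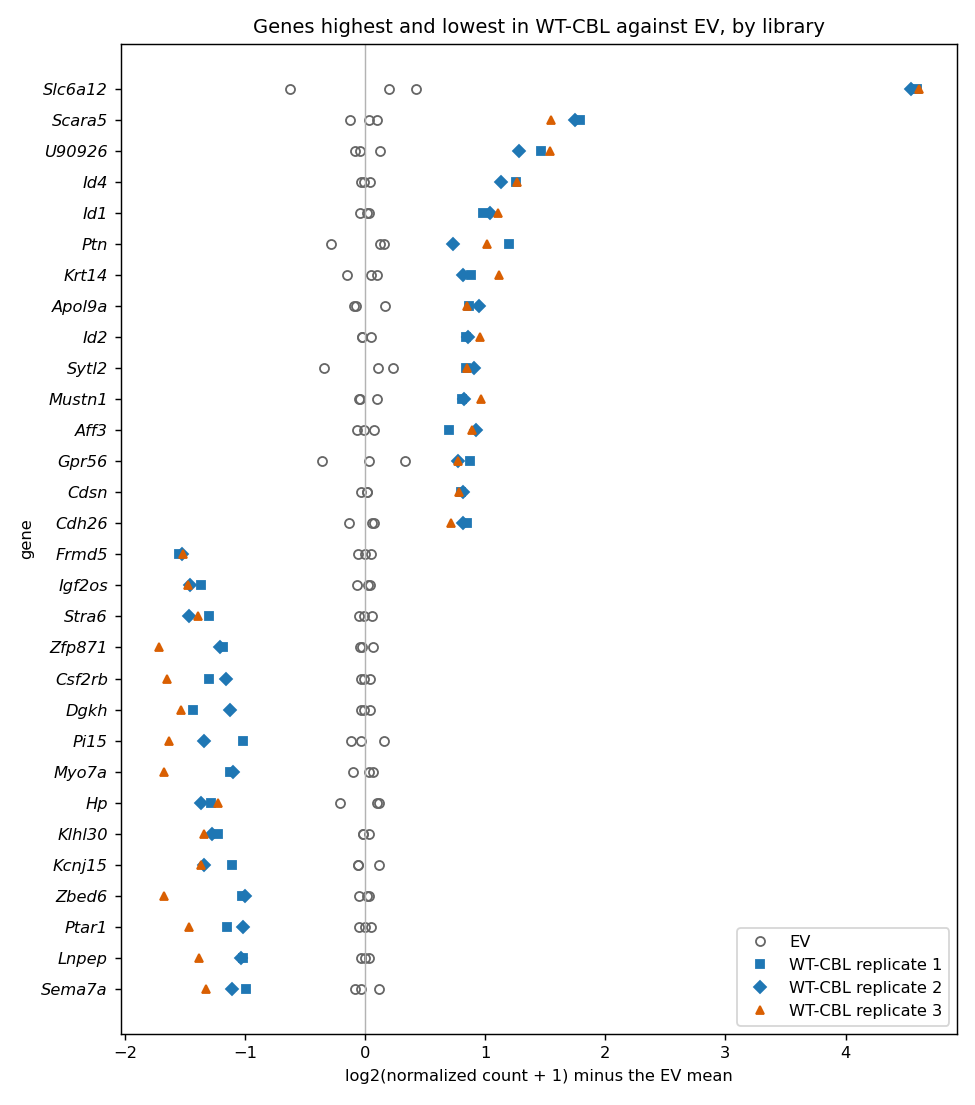
Each library's log2(normalized count + 1) minus the EV mean for the 15 highest and 15 lowest genes, with open circles for EV and filled symbols for the 3 WT-CBL libraries. WT-CBL replicate 3 (triangles) is the lowest library in most of the genes that fell, among them Zbed6, Zfp871 and Myo7a. No WT-CBL library reaches an EV library in any of the 30 genes, as the rule for naming them required.

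Stra6, Sema7a and Islr are close neighbors on chromosome 9, and all fell. Islr, which encodes a secreted leucine-rich repeat protein of mesenchymal cells, lies 2272 bases from Stra6 and had 279.8, 315 and 333 normalized counts in EV and 166, 187 and 198 in WT-CBL (-0.75 ± 0.09, adjusted p = 3.3e-05). Sema7a lies 100923 bases from Stra6 on its other side. Ubl7, on the far side of Sema7a, went the opposite way (0.16 ± 0.05, adjusted p = 0.0161), a call lost without the trend (0.06, adjusted p = 0.285), EV replicate 2 (0.15, 0.0641) or EV replicate 3 (0.15, 0.0611). The other 3 measured genes within 200 kb were not called. The promoters of the genes that fell are shown for comparison with those of the Id genes, with the same motifs in capitals. They are chr9:58128838-58129087 for Stra6 and chr9:57939862-57940111 for Sema7a, both on the plus strand, and chr9:58158555-58158804 on the minus strand for Islr, all from RefSeq on GRCm38.p6. The RefSeq start of Stra6 lies inside the span the annotation gives that gene (ENSMUSG00000032327, chromosome 9, 58063788 to 58153996). The same holds for Islr (58156268 to 58204306), Id2 (chromosome 12, 25093799 to 25097140) and Id3 (chromosome 4, 136143497 to 136145755).
Stra6: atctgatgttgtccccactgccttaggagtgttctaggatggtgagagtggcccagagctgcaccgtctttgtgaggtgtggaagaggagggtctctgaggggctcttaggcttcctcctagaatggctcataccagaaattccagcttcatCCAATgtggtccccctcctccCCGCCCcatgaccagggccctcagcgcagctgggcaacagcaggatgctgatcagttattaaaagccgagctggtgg
Sema7a: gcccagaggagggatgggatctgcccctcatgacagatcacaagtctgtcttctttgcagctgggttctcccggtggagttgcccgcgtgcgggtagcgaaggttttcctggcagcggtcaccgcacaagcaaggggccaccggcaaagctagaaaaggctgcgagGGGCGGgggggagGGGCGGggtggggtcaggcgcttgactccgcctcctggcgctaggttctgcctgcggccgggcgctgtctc
Islr: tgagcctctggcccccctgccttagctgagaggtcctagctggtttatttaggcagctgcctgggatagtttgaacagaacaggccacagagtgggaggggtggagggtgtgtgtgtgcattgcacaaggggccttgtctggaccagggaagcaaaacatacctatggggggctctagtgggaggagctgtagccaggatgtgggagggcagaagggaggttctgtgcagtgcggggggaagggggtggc

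The Stra6 promoter held the GC box once and CCAAT once, and the Sema7a promoter held the GC box 2 times. None of the motifs stood in the Islr promoter. GC content was 56.4% in Stra6, 66.4% in Sema7a and 59.6% in Islr.

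Other neighbors moved too. Naaa, an acid amidase that degrades N-acylethanolamines, lies 42251 bases from U90926 and had a mean of 824 normalized counts in EV and 1236 in WT-CBL, with no overlap of the libraries (0.58 ± 0.04). Next to Id1, the survival gene Bcl2l1 was higher (0.39 ± 0.04). Near Slc6a12, on the other hand, both measured neighbors, the interferon-induced protease gene Usp18 and the peroxin gene Pex26, were lower (-0.63 ± 0.16 and -0.29 ± 0.05). Within 200 kb, 13 of the 15 highest genes had 81 measured neighbors, of which 20 (24.7%) were called higher and 12 lower, against 23% of the neighbors of all genes called higher. For 13 of the 15 lowest genes, 21 of 76 neighbors (27.6%) were called lower and 13 higher, against 20.1% of the neighbors of all genes called lower. The first share is near its background and the second above it, without a test, and some of these genes neighbor 2 named genes. Those 21 include Stra6 and Sema7a, each counted for the other and both chosen as low, and Islr, counted for both. They also include Igf2, whose reads cannot be told apart from those of Igf2os. No excess of lower neighbors is concluded from this.

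**Figure D3:**
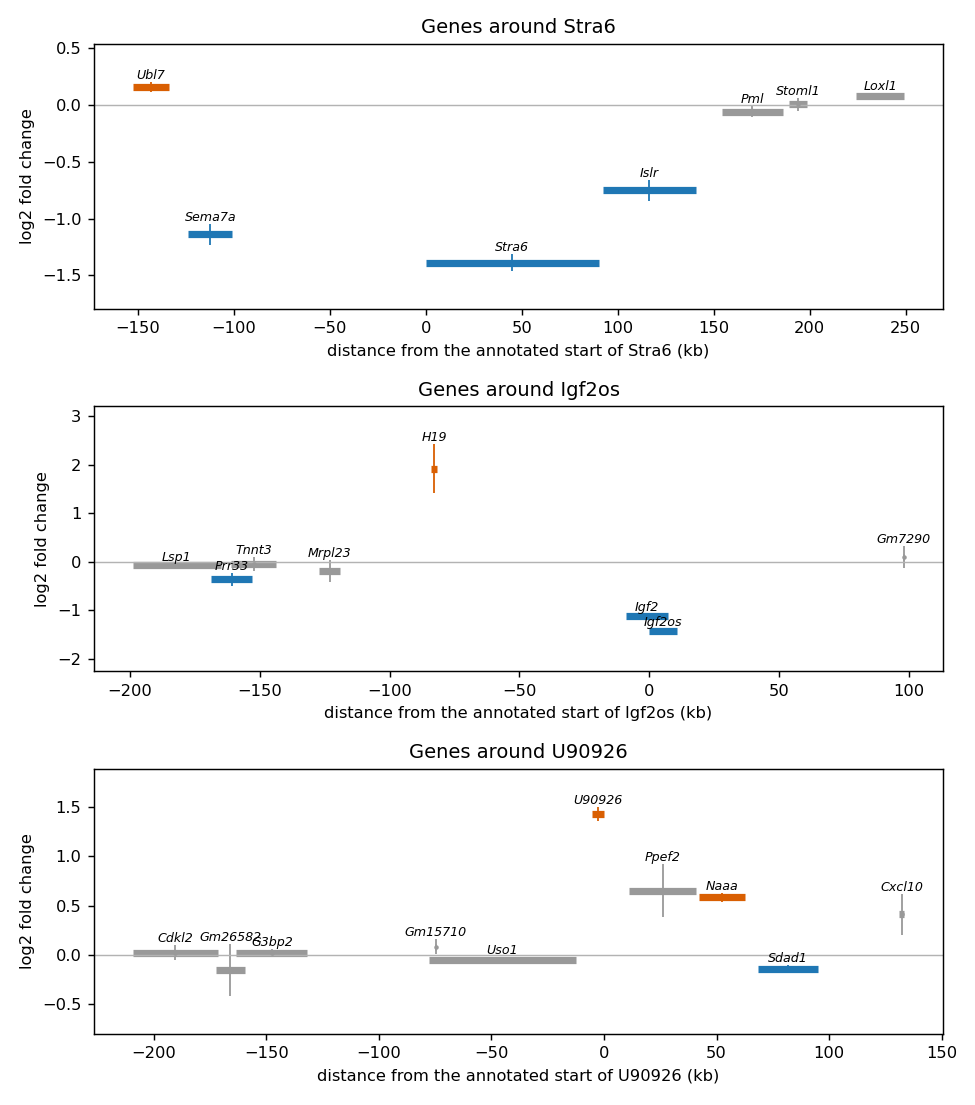
Log2 fold change of WT-CBL against EV (vertical lines: SE) for the measured genes around Stra6, Igf2os and U90926, by distance in kb from the annotated start of the named gene. Thick bars span each gene, in orange where called higher, in blue where called lower and in grey where not called. Sema7a and Islr fell beside Stra6, Igf2 fell with Igf2os while H19 rose, and Naaa rose beside U90926.

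The partners of CBL were more often lower than higher. Of 28 measured genes of the CBL family and its adaptors, 1 was called higher and 14 lower. Of all genes tested, 18.3% were called higher and 20.5% lower, which is the background for every list that follows. The median log2 fold change of the list was -0.12 against 0.01 over all genes. Leaving out a library gave 0 to 3 higher and 10 to 16 lower. After trend removal these were 4 higher and 10 lower, with a median of -0.09. Cblb, the related ligase, had 1019.7, 1008 and 1025 normalized counts in EV and 794, 759.5 and 727 in WT-CBL (-0.42 ± 0.05, adjusted p = 1.9e-05), and remained lower after trend removal (-0.26). Cblc had at most 4 reads in any library of the 2 lines. Gab2, a docking protein of receptor signaling, had one of the largest changes (-0.67 ± 0.11). Sh3kbp1, the gene of CIN85, had 4489, 4387 and 4499 in EV and 4632, 4755 and 4668 in WT-CBL and was not called (0.07 ± 0.03, adjusted p = 0.0881), but gave 0.24 (adjusted p = 8.91e-06) without the trend and 0.07 (0.0329) without WT-CBL replicate 3. Cd2ap turned from -0.13 ± 0.04 (adjusted p = 0.0258) to 0.17 without the trend, called in both directions, and the first call was lost without EV replicate 1 (-0.11, adjusted p = 0.108) or EV replicate 3 (-0.11, 0.114). Grb2 was close to 0 in both (0.05 and -0.00, not called).

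Receptor tyrosine kinases, a main class of CBL substrates, were lower as well. Of 29 measured, 3 were called higher (1 without WT-CBL replicate 2 or EV replicate 2) and 15 (51.7%) lower, with a median of -0.17. After trend removal these were 5 and 12, with a median of -0.12. Pdgfra, a main growth factor receptor of fibroblasts, had 34739.8, 34724 and 34344 normalized counts in EV and 27992, 28384 and 26811 in WT-CBL (-0.32 ± 0.03), and Pdgfrb had 7734, 7735 and 7489 in EV and 6392, 6626 and 5925 in WT-CBL (-0.28 ± 0.04). Both stayed lower without the trend (-0.17 and -0.27). Egfr had 933, 967 and 882 in EV and 763, 795 and 696 in WT-CBL (-0.30 ± 0.06), but its call was lost without the trend (-0.12, adjusted p = 0.0691). Met gave -0.26 ± 0.05 (-0.15 without the trend) and Igf1r -0.51 ± 0.07 (-0.26). Mertk, which clears dead cells, gave -0.88 ± 0.19. The neurotrophin receptor Ntrk3 was the highest at 1.51 ± 0.54 (adjusted p = 0.0384), at a mean below 15 normalized counts in either line, and its call was lost without WT-CBL replicate 2 (1.31, adjusted p = 0.131), EV replicate 2 (0.82, 0.150) or EV replicate 3 (1.66, 0.0600).

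Among 27 measured ligands of such receptors, 3 were called higher and 9 lower, with a median of 0.01, near that of all genes, and 4 higher and 8 lower after trend removal. Besides Igf2, the largest changes were falls of Fgf21, a hormone-like FGF (-1.01 ± 0.25, at 23.8, 25.9 and 19.9 normalized counts in EV and 11.6, 10.9 and 10.5 in WT-CBL), and Angpt1, the ligand of TIE2 (-0.93 ± 0.14). Of 47 genes of clathrin endocytosis and ESCRT, the machinery that takes up and sorts ubiquitinated receptors, 13 were higher and 12 lower, with a median of 0.02, and 9 higher and 7 lower after trend removal. Before trend removal, the count of those higher was 8 without any 1 EV library. The early endosome tether Eea1 (-0.46 ± 0.06, -0.28 without the trend) and the scaffold Itsn2 (-0.43 ± 0.06, -0.22 without the trend) fell most.

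Exchange factors of CDC42 and Rac, which turn these small GTPases on, were called lower in 13 of 24 and higher in 1. They are long transcripts, with a median of 9596 bases, and after trend removal 5 were higher and 7 lower and the median went from -0.16 to -0.04. Dock4 fell (-0.62 ± 0.09, -0.31 without the trend), and the 1 that rose was Plekhg4 (0.53 ± 0.08). Fgd4, a CDC42 exchange factor, had 15.5, 9.50 and 13.9 normalized counts in EV and 9.68, 8.76 and 3.14 in WT-CBL, with overlapping libraries, and was not called (-0.86 ± 0.40, adjusted p = 0.107). Without WT-CBL replicate 3 it gave -0.43 and without the trend -0.53, neither called, and with a spread shared by 12 libraries it was called (-0.86, adjusted p = 0.016). Cdc42 itself was slightly higher (0.14 ± 0.03).

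Genes downstream of ERK showed no common direction. Of 25 feedback and target genes, 8 were higher and 6 lower, with a median of 0.02, and 5 higher and 5 lower after trend removal. The inhibitor Spred2 was lower (-0.41 ± 0.05), as was the cytokine Lif (-0.39 ± 0.08), while the inhibitor Spry2 was higher (0.36 ± 0.07). The ETS repressor Erf was not called (-0.03 ± 0.04, -0.08 without the trend). Of 30 immediate early genes, 6 were higher and 9 lower, and 3 higher and 8 lower after trend removal. The nuclear receptors of the NR4A family all fell, with -0.38 in Nr4a1, -0.59 in Nr4a2 and -0.60 in Nr4a3 (SE 0.04, 0.06 and 0.09). Klf4 rose (0.34 ± 0.04). Egr1 gave -0.13 ± 0.05 (adjusted p = 0.043), and its call was lost without EV replicate 1 (-0.08, adjusted p = 0.234), EV replicate 3 (-0.14, 0.0834), WT-CBL replicate 1 (-0.15, 0.0508) or WT-CBL replicate 2 (-0.14, 0.0656).

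Around the Id genes, the BMP pathway moved in both directions, with 11 of 31 measured genes higher and 10 lower (6 lower without EV replicate 1). After trend removal 11 were higher and 8 lower. The type II receptor Bmpr2 had 1003, 1023 and 991 normalized counts in EV and 533, 519 and 397 in WT-CBL (-1.07 ± 0.09, -0.77 without the trend), so a receptor of the pathway fell while the Id genes rose. Acvr2b, another type II receptor, fell too (-0.72 ± 0.13). Of 22 genes of the TGF-beta response, 3 were higher and 10 lower, and 5 higher and 11 lower after trend removal. Inhba, which encodes the activin A subunit, had 708, 724 and 674 in EV and 391, 387 and 307 in WT-CBL (-0.96 ± 0.08). The corepressor Skil (-0.68 ± 0.04) and the type I receptor Tgfbr1 (-0.53 ± 0.05) were lower, whereas Ctgf, a matricellular growth factor, was higher (0.47 ± 0.04).

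Retinoid genes did not follow Stra6. Of 18 measured, 5 rose and 4 fell (2 fell without EV replicate 3), with 5 and 4 after trend removal as well. The retinaldehyde dehydrogenase Aldh1a1 (0.65 ± 0.09), the retinaldehyde reductase Dhrs3 (0.55 ± 0.05), the retinoic acid receptor Rarb (0.53 ± 0.13) and the retinoic acid hydroxylase Cyp26b1 (0.49 ± 0.05) were all higher in WT-CBL. Dhrs3, Rarb and Cyp26b1 are known retinoic acid target genes. These 4 named genes are all from the 5 that rose, and the list had a median of -0.003 (-0.06 after trend removal). A retinoic acid response was not tested.

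Of 19 genes of iron handling, 6 were higher and 8 lower, and 6 higher and 5 lower after trend removal. Alongside Scara5, the ferritin subunit gene Ftl1 and the ferric reductase gene Steap1 rose (0.32 ± 0.05, 0.20 without the trend, and 0.43 ± 0.04), while the iron exporter Slc40a1 (ferroportin, -0.59 ± 0.06) and the ferroxidase Cp (ceruloplasmin, -0.51 ± 0.04, -0.34 without the trend) fell. Among 28 genes of the IGF axis and imprinted genes, 5 were higher and 10 lower, and 8 higher and 9 lower after trend removal. After H19, Igf2os and Igf2, the next largest change was that of the imprinted ubiquitin ligase Ube3a (-0.64 ± 0.05, -0.28 without the trend).

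Matrix genes other than collagens were lower in 23 of 45 and higher in 8, with a median of -0.17 (-0.08 and 22 against 10 without the trend). Without WT-CBL replicate 3 the median was -0.10 and the counts were 25 and 10. Lum, which encodes the collagen-binding proteoglycan lumican, had 5271, 4967 and 5101 normalized counts in EV and 2649, 2442 and 2467 in WT-CBL (-1.02 ± 0.04, adjusted p = 2.68e-09) and no library of WT-CBL reached one of EV. The hyaluronan synthase Has1 had 35.2, 49.2 and 41.8 in EV and 16.5, 17.5 and 9.41 in WT-CBL (-1.51 ± 0.25), and the laminin chain Lama4 gave -1.05 ± 0.06. Of 36 collagens and collagen-processing genes, 6 were higher and 12 lower, and 9 higher and 11 lower after trend removal. Col12a1 (-0.78 ± 0.06) and Col3a1 (-0.56 ± 0.03) fell, as did Col14a1 (-0.75 ± 0.22), whose call was lost without EV replicate 2 (-0.62, adjusted p = 0.0837). The osteoglycin gene Ogn, chosen after its value was seen, rose by 0.62 ± 0.05.

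Contractile and cytoskeletal genes numbered 7 higher (17.5%, near the 18.3% of all genes) and 16 lower (40%, against 20.5%) of 40. After trend removal 8 were higher and 20 lower. The actin nucleator Lmod1 was at 37.3, 42.3 and 35.8 normalized counts in EV and 17.4, 21.9 and 15.7 in WT-CBL (-1.04 ± 0.21), opposite to Mustn1. Of 40 proteases and inhibitors, 9 were higher and 13 lower (8 higher and 12 lower after trend removal), with the metalloproteases Adamts12 (-0.94 ± 0.08) and Adamts6 (-0.64 ± 0.10) falling most. Axon guidance and adhesion genes were lower in 19 of 51 and higher in 5, and 7 higher and 18 lower after trend removal. Those higher numbered 8 without WT-CBL replicate 3 and 3 without EV replicate 3. Besides Sema7a, the semaphorin Sema5a (-0.91 ± 0.05) and the laminin-binding integrin Itga7 (-0.98 ± 0.28, adjusted p = 0.0147) fell, the latter with its call lost without EV replicate 1 (-0.88, adjusted p = 0.0704) or EV replicate 2 (-0.96, 0.0541). In the WNT pathway 14 of 31 genes were lower and 4 higher, with a median of -0.23. After trend removal 11 were lower and 3 higher, with a median of -0.16, and without WT-CBL replicate 3 the median was -0.15. Apc, the scaffold of beta-catenin breakdown (-0.51 ± 0.07, -0.26 without the trend), and the WNT-induced matricellular gene Wisp1 (-0.44 ± 0.04) were among them.

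Chemokine and inflammation genes were split, with 11 of 39 higher and 12 lower, and 11 higher and 10 lower after trend removal. The eosinophil chemokine Ccl11 (-0.89 ± 0.09) and Ccl8 (-0.60 ± 0.05) fell, and Ccl9 rose (0.62 ± 0.10). Of 35 interferon response genes, 7 (20%) were called higher, near the 18.3% of all genes, and 4 (11.4%) lower, against 20.5% of all genes. Without the trend these were 2 and 4, and without WT-CBL replicate 3 they were 7 and 7. The deconjugase Usp18 (-0.63 ± 0.16) and the transcription factor Stat2 (-0.34 ± 0.04) were the most changed, both downward.

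Genes of DNA replication and nucleotide synthesis were higher as a group, with 30 of 50 called higher and 0 lower and a median of 0.15. Their median exon length of 4045 bases is near that of all genes (3796), and after trend removal 27 were higher and 1 lower, with a median of 0.13. With the trend fitted on abundant genes alone (a mean of at least 100) 25 were higher and 1 lower, with a median of 0.11. Gins1, of the replicative helicase, gave 0.32 ± 0.07 and the thymidine kinase Tk1 0.28 ± 0.04. Of 49 mitosis and spindle genes, 15 were higher and 10 lower, and 17 higher and 5 lower after trend removal. Aspm, a spindle pole protein with a long transcript, was lower (-0.47 ± 0.05, -0.27 without the trend), as was the proliferation marker Mki67 (-0.33 ± 0.05, -0.18), whereas the survivin gene Birc5 was higher (0.29 ± 0.05). Of 34 D-type cyclin, CDK inhibitor and p53 target genes, 12 were higher and 11 lower (7 lower without EV replicate 1). After trend removal 16 were higher and 9 lower. Cyclin D1 (Ccnd1, 0.35 ± 0.04) rose, and Sesn3, a FOXO target (-0.64 ± 0.07, -0.40 without the trend), Cdk6 (-0.53 ± 0.09, -0.30 without the trend) and Rb1 (-0.40 ± 0.09) fell.

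Most ribosomal protein and respiratory chain genes were higher, in small steps. Of 82 cytosolic ribosomal protein genes, 64 (78.0%) were higher and 1 lower, with a median of 0.23, and of 78 nuclear-encoded respiratory chain genes 63 (80.8%) were higher and 0 lower, with a median of 0.21. Both lists hold short transcripts, with median exon lengths of 1755 and 1737 bases. Without the trend 55 and 49 were higher, with medians of 0.16 and 0.13, and with the trend fitted on genes with a mean of at least 100 counts alone the numbers were 42 of 78 and 28 of 74, with medians of 0.11 and 0.08. Rpl31 (0.37 ± 0.06) and the complex I gene Ndufb10 (0.31 ± 0.04, 0.20 without the trend) had among the largest values. Rpl34 was the 1 that fell (-0.30 ± 0.10, adjusted p = 0.0276). Its call was lost without WT-CBL replicate 1 (-0.30, adjusted p = 0.0563), EV replicate 1 (-0.23, 0.134) or EV replicate 2 (-0.26, 0.115). Ribosomal protein genes have many pseudogenes with which reads can be shared. Processed pseudogenes as a class, with a median length of 632 bases, were called higher in 297 and lower in 68 of 1516. The share called higher was near the 18.3% of all genes tested, and the share called lower was well below their 20.5%. Transcripts of the mitochondrial genome were higher in 4 of 10 and lower in 0 (5 higher and 0 lower after trend removal), led by mt-Nd6 (0.40 ± 0.04). With the trend fitted on abundant genes alone, 2 of 7 were higher and 1 lower. The median went from 0.18 to 0.03 in that fit.

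Sterol and fatty acid synthesis went down. Of 35 genes, 22 (62.9%) were lower and 2 higher, with a median of -0.14, and 20 and 1 after trend removal, with a median of -0.10. The sterol ketoreductase Hsd17b7 had the largest change (-0.39 ± 0.04), followed by the isomerase Idi1 (-0.29 ± 0.09, adjusted p = 0.0226), whose libraries overlapped and whose call was lost without WT-CBL replicate 2 (-0.26, adjusted p = 0.0719), EV replicate 1 (-0.27, 0.0890) or EV replicate 3 (-0.21, 0.120). The fatty acid synthase Fasn gave -0.26 ± 0.06 (-0.13 without the trend). Glycolysis and hypoxia genes were higher in 18 of 36 and lower in 4, with a median of 0.12, and 16 higher and 4 lower after trend removal. Those higher numbered 11 without EV replicate 1 or EV replicate 3. The 4 that fell included the angiogenic factor Vegfa (-0.58 ± 0.03) and the oxygen-regulated transcription factor Hif1a (-0.42 ± 0.04), and the vasodilator gene Adm rose most (0.69 ± 0.05). Genes of the unfolded protein response and amino acid stress numbered 7 higher and 8 lower of 38, with a median of 0.00, and 4 higher and 12 lower after trend removal. Without EV replicate 1, 2 or 3 they numbered 1, 4 and 3 higher and 4, 4 and 4 lower, and without WT-CBL replicate 2 those lower numbered 5.

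Numbered Zfp genes, a name class of mostly zinc-finger transcription factors, were lower in 96 of 299 (32.1%) and higher in 11, with a median of -0.11, and in 75 and 21 after trend removal. Those higher numbered 5, 7 and 5 without EV replicate 1, 2 or 3. Below Zfp871 came Zfp600, at 14.5, 13.0 and 16.9 normalized counts in EV and 3.87, 8.76 and 7.32 in WT-CBL (-1.10 ± 0.35), whose call was lost without WT-CBL replicate 1 (-0.80, adjusted p = 0.0722), EV replicate 1 (-1.11, 0.0674), EV replicate 2 (-1.18, 0.0504) or EV replicate 3 (-1.003, 0.0831). Of 69 replication-dependent histone genes, whose mRNAs lack a poly(A) tail, 13 reached the minimum and 0 were called, with a median of 0.28, and 0 after trend removal.

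**Figure D4:**
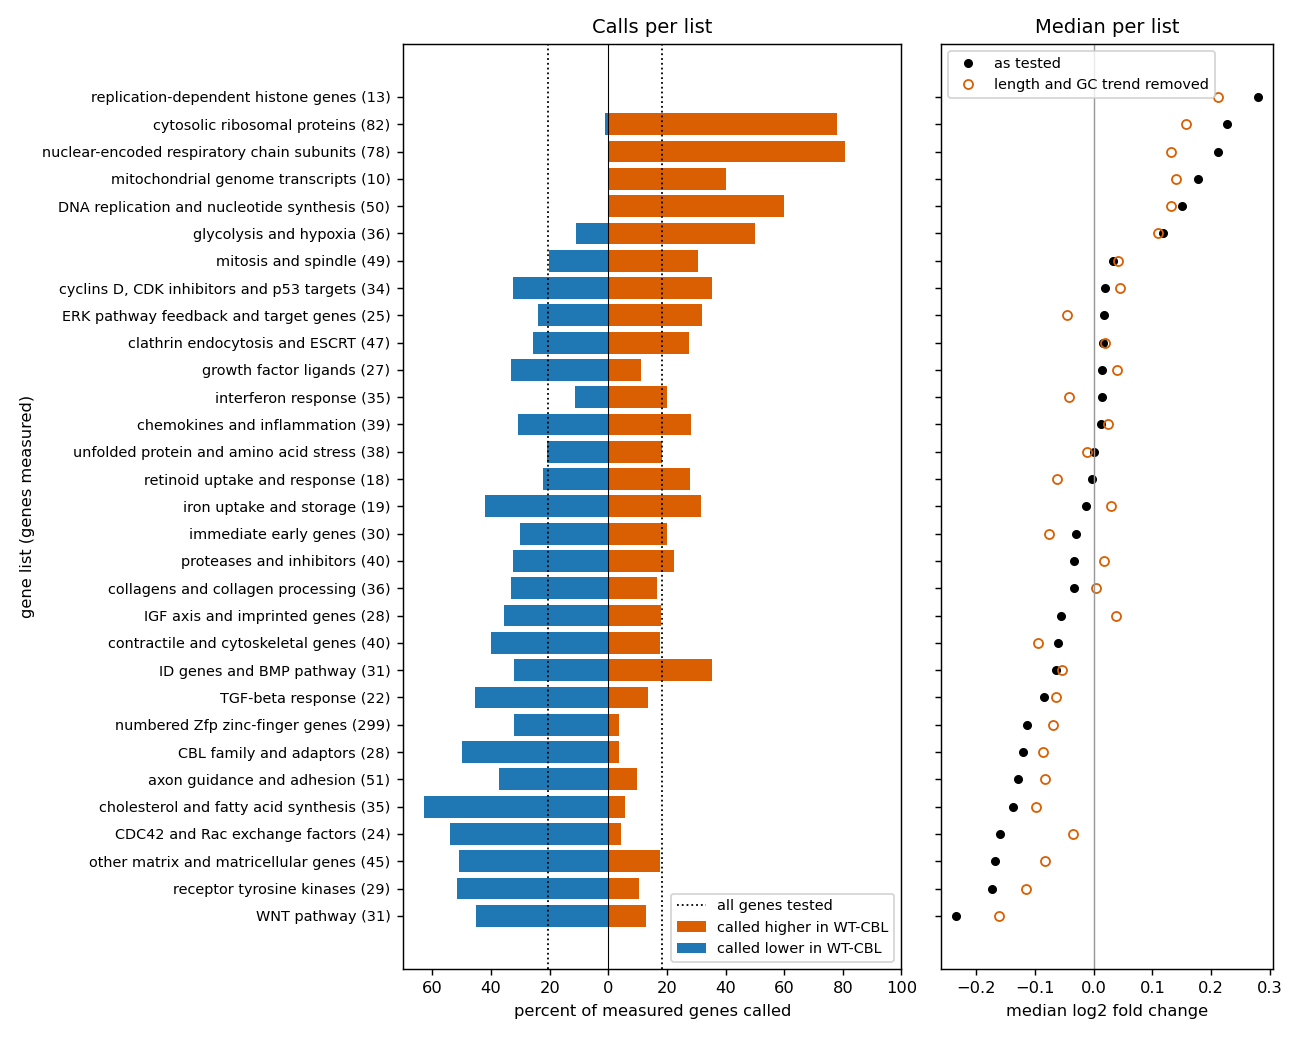
Left, percent of the measured genes of each list called higher (orange) or lower (blue) in WT-CBL, with the number measured in parentheses and dotted lines at the share over all genes tested (18.3% higher, 20.5% lower). Right, median log2 fold change of each list as tested (filled) and with the length and GC trend taken out (open): ribosomal protein, respiratory chain and replication genes lie to the right and WNT, receptor tyrosine kinase and matrix genes to the left in both.

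The mutant lines were set beside WT-CBL for the 30 named genes, with all 12 libraries on a common scale. These comparisons use the same WT-CBL libraries by which the genes were chosen, so a shared deviation of those libraries enters both. Against CBL-70Z, 14 of the 15 highest genes were higher in WT-CBL (16.6% of all genes were), and 12 of the 15 lowest were lower (19.3% of all genes). Scara5 was the exception among the highest, being lower in WT-CBL, and Myo7a, Klhl30 and Kcnj15 were not called. Against CBL-Y371S, 11 of the 15 highest were higher (21.9% of all genes), Scara5 was lower, and Ptn, Krt14 and Cdh26 were not called. Of the 15 lowest, Stra6, Pi15 and Sema7a were lower in WT-CBL than in CBL-Y371S (18.9% of all genes), and the other 12 were higher in WT-CBL. The comparisons with the mutant lines keep the trend with length, with a rho of -0.46 against CBL-70Z and 0.28 against CBL-Y371S. Several of those 12 are long, such as Dgkh, Lnpep and Ptar1 (16975, 14144 and 12810 bases), while Hp and Klhl30 are shorter (1606 and 3089). The part of length in these calls was not tested.

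On that scale Slc6a12 had 7.03, 5.84 and 2.88 normalized counts in EV, 143, 138 and 145 in WT-CBL, 5.11, 5.41 and 6.28 in CBL-70Z and 45.3, 61.7 and 53.3 in CBL-Y371S. CBL-70Z lay within the range of EV, and CBL-Y371S above both and below WT-CBL (WT-CBL minus CBL-Y371S 1.40 ± 0.25, adjusted p = 0.000143). Id3 had 2079, 2057 and 2012 in EV, 3316, 3362 and 3782 in WT-CBL, 1812, 1782 and 1832 in CBL-70Z and 2646, 2647 and 2596 in CBL-Y371S. It was higher in WT-CBL than in CBL-70Z by 0.94 ± 0.04 and than in CBL-Y371S by 0.40 ± 0.04.

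Aff3 had 67.3, 74.2 and 70.2 in EV, 116, 135 and 132 in WT-CBL, 49.1, 51.9 and 51.3 in CBL-70Z and 40.5, 22.1 and 30.7 in CBL-Y371S, so that both mutant lines lay below EV and WT-CBL above it. Its WT-CBL libraries exceeded those of CBL-Y371S by 2.04 ± 0.17. Pi15 had 117, 124 and 142 in EV, 63.0, 49.96 and 40.5 in WT-CBL, 146, 163 and 176 in CBL-70Z and 80.9, 76.8 and 70.4 in CBL-Y371S, and WT-CBL minus CBL-70Z was -1.66 ± 0.14 on the log2 scale. Frmd5 was lowest in CBL-Y371S, with 46.2, 29.1 and 33.4 against 57.4, 58.5 and 58.7 in WT-CBL, 77.7, 88.7 and 97.4 in CBL-70Z and 169.7, 175 and 162 in EV. In this gene all 3 CBL lines stood below EV.

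**Figure D5:**
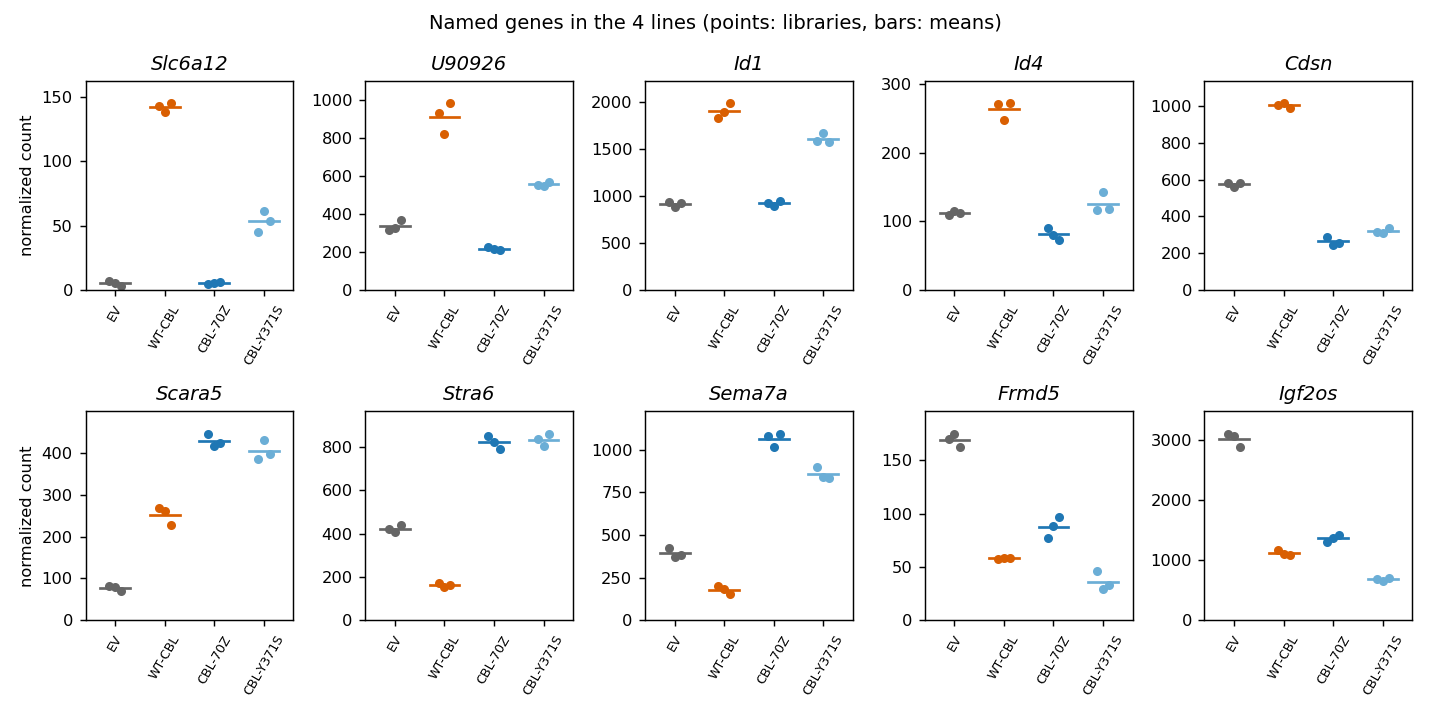
Normalized counts of 10 named genes in the 12 libraries of the 4 lines, on a common scale (points: libraries, horizontal bars: means of 3 libraries). WT-CBL is the highest line for Slc6a12, U90926, Id1, Id4 and Cdsn and the lowest for Stra6 and Sema7a. For Scara5 it lies between EV and both mutant lines, for Frmd5 and Igf2os between CBL-Y371S and CBL-70Z.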

How the data were processed

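RNA was extracted with TRIzol and libraries were made with the TruSeq RNA v2 kit, which does not mark strand. Per the submitters' processing notes and the methods, reads were checked with FastQC 0.10.1, aligned with TopHat2 2.0.13 (Bowtie2 version 2.2.4.0; build GRCm38), counted per gene with HTSeq 0.9.1 and normalized with DESeq2 (version, annotation release and strand setting are not given in the sources used here). The deposited values are the authors' size-factor-normalized counts per gene and library, a normalized signal, in a table of WT-CBL and EV. The authors' own log2 fold changes, test statistics and p-values in it were not used. Of 42847 lines, repeated lines of 878 IDs were dropped, which left 39179 IDs. Names came from the tables for 22922 of them, from the reference for 15255, and 1002 had none. Each library's factor turned 100% of its values into whole reads (tolerance 1e-06).

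limma 3.58.1 (lmFit, eBayes with trend; R 4.3.3) was run on log2(value + 1) for genes whose mean reached 10 in either line, with Benjamini-Hochberg adjustment over all genes tested. A gene was called where its adjusted p was below 0.05, and standard errors are the moderated ones of limma. The length and GC trend was a natural spline with 5 degrees of freedom, fitted per library. Alternatives were values rescaled with TMM, edgeR 4.0.16 and DESeq2 1.42.0 on recovered reads, pseudocounts of 0.5 and 5, other filters, a replicate block, each library left out and a spread shared by 12 libraries. The test was checked on simulated counts with known changes put in. Those counts held no trend with length between the lines and no deviating replicate, so the check does not cover these features of the data. Pseudogenes were aligned with BLAST+ 2.17.0.

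Named genes were the 15 highest and 15 lowest called genes with no overlap of libraries, a mean of 100 or more in either line and a call in the same direction after trend removal, without Gm-number and Rik symbols and mitochondrial or Y-linked genes. Added by name were Cbl, its family and partners, receptors, Id genes, Fgd4, Egr1, Erf and Cdc42, and from each list the members with the largest called change. Some genes that this rule names are not reported here. The members and lists were chosen with earlier results of these data known. Ftl1, Birc5, Mki67, Col3a1, Fasn, neighbors of named genes and genes named for WT-CBL replicate 3 were chosen after their values were seen.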

Additional observations from a re-analysis of the deposited data

How the results depend on the processing

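The number of genes called was 4319 to 5680 with a library left out (1926 to 2648 higher, 2393 to 3032 lower), lowest without EV replicate 1, and stayed within 1.5 times 5843 in every alternative. The count at a fold of 2 or more was 139, and 119 to 172 with a library left out. It went to 69 with DESeq2, 71 with a pseudocount of 5, 268 without a filter on low values, 56 with a filter at a mean of 50 and 28 after trend removal with a filter at a mean of 100, where fewer low genes were tested. That last alternative, and trend removal without WT-CBL replicate 3 (4920 called), were chosen after the data were seen. Named genes called against CBL-70Z and CBL-Y371S in their direction numbered 26 and 14, and 26 to 26 and 13 to 14 with a library left out.

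Same-numbered replicates showed little shared deviation. The correlations of their deviations from the line means were 0.03, 0.07 and 0.02 over genes, and 1 of 3 WT-CBL libraries correlated best with its own number. These values cannot show whether same-numbered libraries were handled together. With the replicate block 5841 genes were called (2743 higher, 3098 lower, 140 at a fold of 2 or more), of which 5657 were called in the same direction without it, and 5202 with the block and trend removal.

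Trend removal turned Cd2ap from -0.13 to 0.17 (0.17 with the block, 0.14 without WT-CBL replicate 3, 0.17 with the filter at 100) and Grb2, never called, from 0.05 to -0.00287 (-0.00287 with the block, -0.0131 without WT-CBL replicate 3, -0.0442 with the filter at 100). The cause was not tested. Over single genes named in the text and all alternatives, 2350 values kept direction and call, 39 lost the call, 23 gained it and 8 changed sign. Of the list medians, 475 moved by less than the spread between replicates and 114 by more. Genes below about 30 normalized counts, such as Ntrk3, H19 and Zfp600, are limited by depth.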
